A study of Mus musculus with 32 samples.

Results

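Ear was compared with dorsal back skin in mice of the inbred NC/Nga strain, which is prone to dermatitis, on the 16 arrays whose titles name sham as the agent. These were 8 arrays of ear and 8 of back skin, chosen by title, out of 32 arrays in the series, and the comparison asks how the skin of both sites differs without the agent HDM. The other 16 arrays, 8 of each site, came from NC/Nga mice given HDM, an agent that the labels do not spell out, and they are used only for a comparison side by side at the end. The labels name no engineered allele in any of the 4 groups. They do not describe the sham treatment, the age or the sex of the animals or the hour of collection, and they say only of HDM-treated mice that they were kept SPF. Each sample was an 8 mm punch kept in RNAlater for at least 18 hours, from which 100 ng of RNA was labelled with biotin. Mouse numbers 1 to 8 recur at both sites, and whether equal numbers are 1 animal is not stated, so p-values measure the spread between these samples.

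Skin of the body carries a positional code of homeobox transcription factors, laid down in the embryo and kept in part by adult fibroblasts. Hox genes are expressed in the trunk in nested domains, while much of the head develops without them, and the pinna of the ear forms largely from the hyoid arch, where Hoxa2 is the selector gene. The pinna is a plate of elastic cartilage between thin layers of sparsely haired skin. Dorsal skin carries a dense pelage whose follicles grow in waves, a layer of dermal fat and, below it, the flat panniculus carnosus muscle.

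Values are the deposited log2 levels of 22206 array rows, for 19505 named genes, and the background of an array is the median of its 5222 negative control rows. That median lay between 4.51 and 5.06 on the sham back arrays and between 5.09 and 5.38 on the sham ear arrays, so that on average it was higher by 0.48 in ear and the sites did not overlap. Small differences therefore depend on the scaling, and those that change direction are named. Being above this median is a low bar, since the negative control rows themselves spread widely. Their upper decile lay between 7.25 and 8.03 on sham back arrays and between 8.05 and 8.49 on sham ear arrays. A gene under that decile may be above background and still within the range of the controls. Between 54.36% and 61.02% of the rows were above background on a sham array, and an array correlated at 0.9752 to 0.9945 with the mean of the others of its group. The values on sham arrays ran from 1.71 to 19.93, a wide range for their kind, and 10 rows came within 0.1 of the highest value, so differences near that limit may be compressed. Whether the values were rescaled is not known, so a fold given here takes the log2 scale at its word while directions do not depend on it. The first principal component of the 16 arrays held 59.9% of the variance and separated the sites. The second held 10.5% and set the back arrays of mice 1 and 2, at 89.3 and 65.9, apart from the other back arrays, at -34.3 to 20.3, and list counts that change much without these 2 arrays are given both ways.

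Of the 22206 rows, 6595, or 29.7%, passed at an adjusted p under 0.05 (limma, Benjamini-Hochberg over all rows). They were 3446 rows higher in ear, or 15.5%, and 3149 rows lower, or 14.2%. By at least 1 on the log2 scale, 1196 rows were higher and 1525 lower. In 1896 rows, or 8.54%, the 8 ear arrays and the 8 back arrays did not overlap. The genes named for the largest differences, in and outside the gene lists, were chosen from these rows. Where lack of overlap is given for them, it follows from that choice. With the medians of the arrays made equal 66.6% of the calls were higher, with the negative control medians made equal 9.81%, against 52.3% as deposited. These scalings moved the median difference of all rows from 0.04 to 0.16 and to -0.44. Of the 2721 calls of at least 1, 2696 and 2616 kept their call and direction under them, and none was called in the opposite direction.

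**Figure D1:**
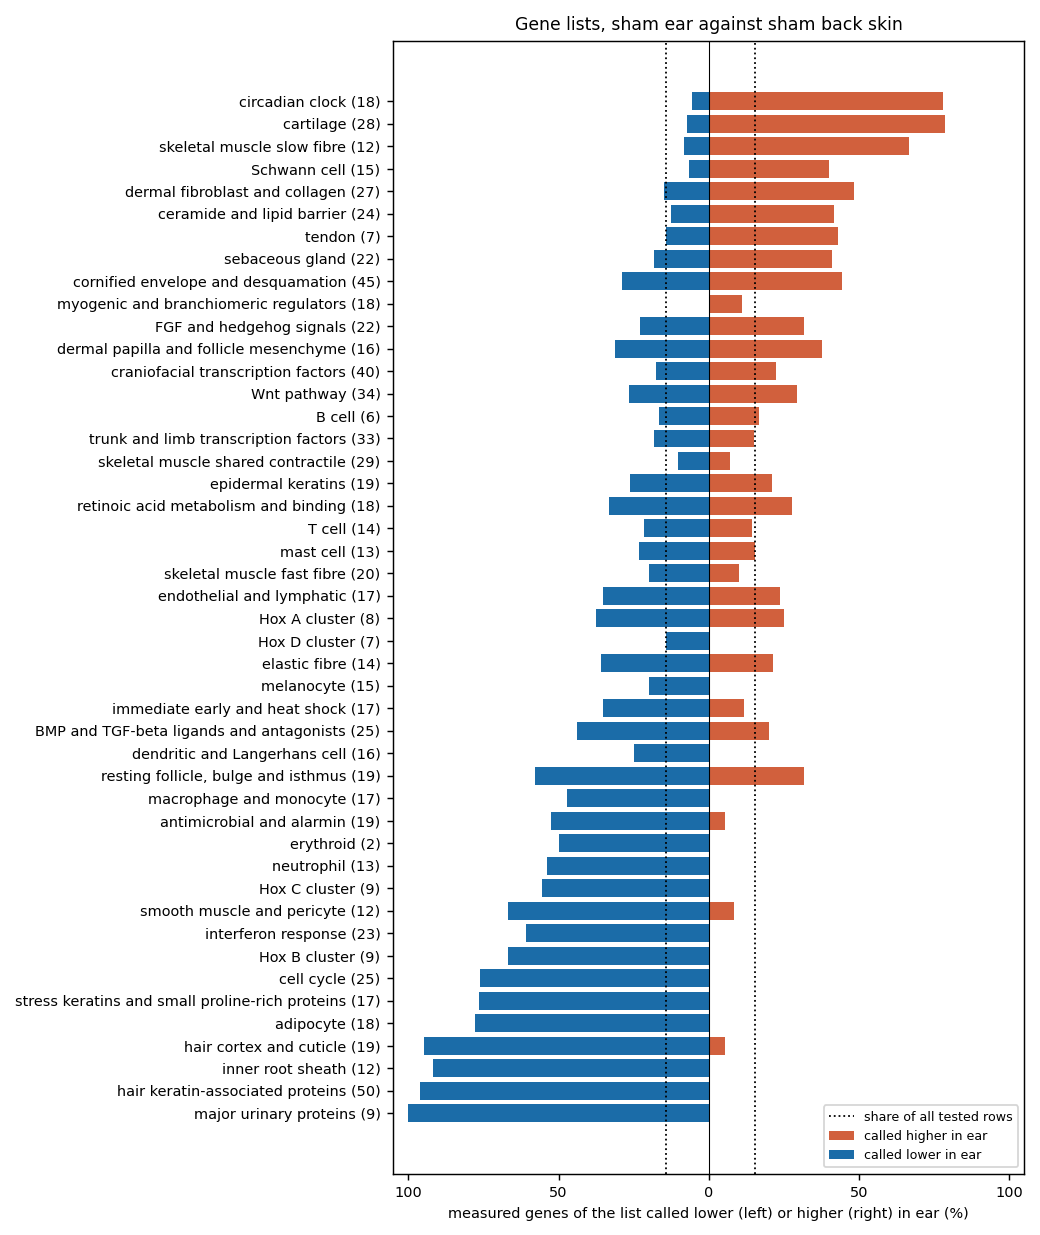
The percentage of measured genes of each list (number of genes in brackets) called higher (right, orange) or lower (left, blue) in sham ear than in sham back skin. Dotted lines mark the share of all 22206 rows, 15.5% higher and 14.2% lower. Cartilage, clock and slow muscle fibre genes stand at the top with most members higher, and the major urinary protein, hair, adipocyte, stress keratin and cell cycle lists at the bottom with most members lower.

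The gene with the largest difference was Krt2, a type II keratin of the upper epidermis that is known for its high level in ear, sole and tail skin. On the back arrays Krt2 lay between 3.54 and 6.03 with a median of 4.15, above background on 2 of 8, and on the ear arrays between 19.38 and 19.93 with a median of 19.89. Every ear array was far above every back array. The difference was 15.49 ± 0.26 (SE, n = 8 a group, adjusted p = 4.98e-18), or 14.97 once values under background were raised, and the ear values stood at the limit of the scale. Krt24, a type I keratin of the differentiating epidermis, was also higher in ear, with 5.21 to 7.91 (median 6.08) in back skin and 16.07 to 17.38 (median 16.86) in ear, a difference of 10.48 ± 0.36 (adjusted p = 1.53e-13). Its groups did not overlap either. Krt77, a type II keratin of the suprabasal epidermis and of sweat ducts, went the other way, with 16.75 to 18.27 (median 17.45) in back skin and 8.56 to 11.87 (median 11.01) in ear, a difference of -6.81 ± 0.41 (adjusted p = 6.63e-10). No ear array reached the lowest back array. Krt1, the main type II keratin above the basal layer, was lower by 1.82 ± 0.24 in ear (adjusted p = 1.17e-05). Krt5, the type II keratin of basal keratinocytes, was at 18.92 ± 0.15 in back skin and 19.02 ± 0.19 in ear (SD, n = 8) and did not pass (adjusted p = 0.56). Its type I partner Krt14 was higher by 0.595 ± 0.15 in ear (adjusted p = 0.0054), a call lost with the negative control medians made equal.

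These type II genes lie next to each other. In RefSeq's annotation of GRCm38.p6 the keratin genes of this cluster, on chromosome 15, follow in the order Krt5, Krt71, Krt74, Krt72, Krt73, Krt2, Krt1, Krt77 and Krt76. Krt2, higher in ear, thus stands between Krt73, a keratin of the inner root sheath of the hair that was lower by 9.15 ± 1.11, and Krt1. Of 22 measured keratin genes of the cluster 1 was called higher, 14 lower and 7 in neither direction. Among all rows 15.5% were called higher and 14.2% lower. With array medians made equal 10 were lower and 11 uncalled, with negative control medians made equal 19 were lower, and without back mice 1 and 2 the counts were 2 higher and 12 lower. The 250 bases before the start of 3 of these genes are shown because neighbours differ so much: Krt71, of the inner root sheath (-9.93 ± 0.92, adjusted p = 2.02e-07), Krt2 and Krt77. They are from RefSeq's promoter table (GRCm38.p6, minus strand, 5′ to 3′): Krt71 at chr15:101743098-101743347, Krt2 at chr15:101818170-101818419 and Krt77 at chr15:101869706-101869955. Capitals mark the letters TATAAA, the core of a TATA box, searched on both strands.
Krt71: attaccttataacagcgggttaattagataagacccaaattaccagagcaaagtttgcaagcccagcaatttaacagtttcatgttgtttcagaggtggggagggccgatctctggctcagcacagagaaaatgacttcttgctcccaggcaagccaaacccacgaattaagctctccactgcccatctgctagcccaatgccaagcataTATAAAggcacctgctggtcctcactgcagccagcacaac
Krt2: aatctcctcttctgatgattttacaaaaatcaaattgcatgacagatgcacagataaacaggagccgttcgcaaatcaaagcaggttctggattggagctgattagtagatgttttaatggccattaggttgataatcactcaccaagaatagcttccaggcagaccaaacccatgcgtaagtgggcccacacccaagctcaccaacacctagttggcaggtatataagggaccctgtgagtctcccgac
Krt77: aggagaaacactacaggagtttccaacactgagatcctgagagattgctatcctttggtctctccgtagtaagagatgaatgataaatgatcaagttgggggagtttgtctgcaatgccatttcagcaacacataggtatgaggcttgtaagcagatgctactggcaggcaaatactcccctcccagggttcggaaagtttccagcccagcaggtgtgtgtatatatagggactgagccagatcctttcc
The letters start 40 bases before the start of Krt71 and are not in the windows of Krt2 and Krt77. Those 2 windows hold similar letters near their ends, tatataag in Krt2 and tatatata in Krt77, which the exact search does not count. The search thus does not show that Krt2 or Krt77 lacks a TATA box. The letters TATAAA occur in 12.4% of all 32851 windows of the table.

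**Figure D2:**
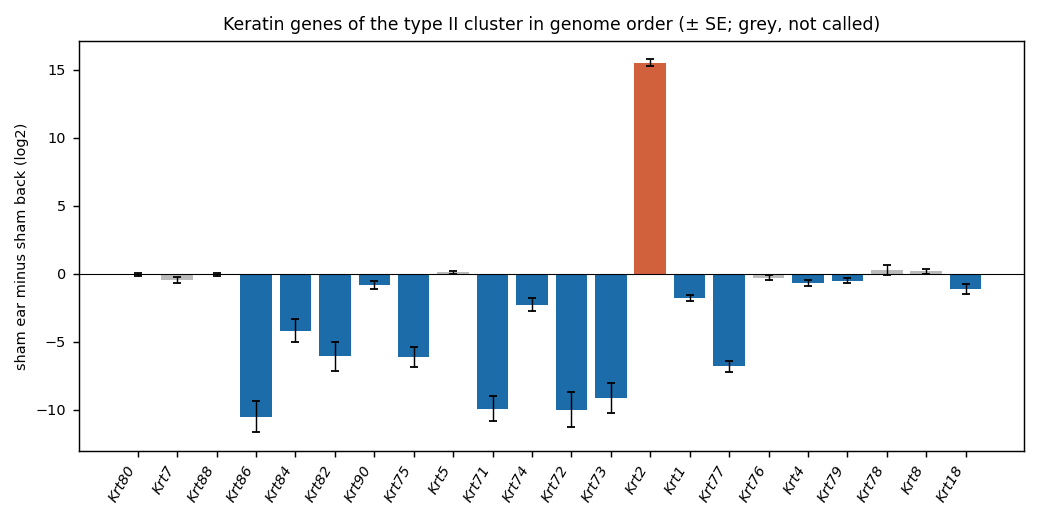
Sham ear minus sham back (log2, bars, with the standard error) for the 22 measured keratin genes of the type II cluster in the order of RefSeq's annotation, orange where called higher, blue where called lower and grey where not called. Krt2, at 15.49, is the only bar called higher, with Krt73 at -9.15 on one side and Krt1 at -1.82 and Krt77 at -6.81 on the other.

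Cartilage genes were higher in ear. Of 28 measured genes of the cartilage list 22 were called higher and 2 lower, with a median difference of 2.31, or 1.60 with bounds in place of the values of genes below background, beside 15.5% higher, 14.2% lower and a median of 0.04 over all rows. Cytl1, a small secreted protein of chondrocytes, lay between 3.54 and 5.92 (median 4.42) in back skin, above background on 3 of 8 arrays, and between 16.93 and 18.09 (median 17.75) in ear. No array of one site came near the other, and the difference was 12.97 ± 0.32 (adjusted p = 1.57e-15). Acan, the large aggregating proteoglycan of cartilage, was at 3.76 to 6.02 (median 4.98) in back skin and 10.98 to 11.92 (median 11.60) in ear, a difference of 6.61 ± 0.26 (adjusted p = 1.39e-12). Again every ear array exceeded every back array. Other cartilage matrix genes were below background on all 8 back arrays, so that only a bound can be given. Chad, chondroadherin, was at least 117-fold higher in ear (adjusted p = 7.39e-15), Hapln1, the link protein that ties aggrecan to hyaluronan, at least 27.4-fold (adjusted p = 5.77e-17) and Comp, cartilage oligomeric matrix protein, at least 25.5-fold (adjusted p = 9.28e-15). Ucma, a matrix protein of the unique cartilage matrix family, was at least 21.9-fold higher (adjusted p = 5.77e-17), and Cnmd, chondromodulin, which keeps cartilage free of vessels, at least 8.82-fold (adjusted p = 1.88e-13). Col2a1, the main fibrillar collagen of hyaline cartilage, was an exception to these levels, since it lay below background on all 16 arrays, at 3.18 ± 0.14 in back skin and 3.61 ± 0.23 in ear (SD, n = 8). The genes called lower were Sox9, the transcription factor of chondrocytes that hair follicles also express, by 0.92 ± 0.28 (adjusted p = 0.0179), and Scrg1, a small secreted protein, above background on 6 of 8 back arrays and at least 1.41-fold lower (adjusted p = 0.00412). In punches such as these, fewer cells of a kind and less RNA in each cell cannot be told apart.

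Genes of dense connective tissue were also among the largest differences. Fmod, fibromodulin, a proteoglycan that binds collagen fibrils, was at 6.35 to 7.96 (median 7.02) in back skin and 12.94 to 13.74 (median 13.55) in ear, a difference of 6.44 ± 0.22 (adjusted p = 1.12e-13). Its groups were well apart. Tnmd, tenomodulin of tendon cells, was higher by 2.85 ± 0.29 (adjusted p = 7.08e-07), but of the 7 tendon genes 3 were called higher and 1 lower with a median of 0.001. Eln, elastin, was higher by 3.11 ± 0.27 (adjusted p = 8.84e-08) and Lox, which crosslinks elastin and collagen, by 2.06 ± 0.21 (adjusted p = 6.88e-07), while Fbln1, the elastic fibre protein fibulin 1, was lower by 2.41 ± 0.23 (adjusted p = 2.91e-07). Of the 14 elastic fibre genes 3 were higher and 5 lower. The counts of this paragraph stand beside 15.5% of all rows called higher and 14.2% called lower. Of 27 dermal fibroblast and collagen genes 13 were higher and 4 lower with a median of 0.54, and with negative control medians made equal 7 were higher and 7 lower with a median of 0.06. Col1a1, the main dermal collagen, was higher by 1.27 ± 0.31 (adjusted p = 0.00426), a call lost under that scaling. Dpp4, a surface peptidase, and Pi16, a peptidase inhibitor, which mark fibroblasts of the dermal and fascial adventitia, were lower in ear by 3.69 ± 0.22 and 2.82 ± 0.20 (adjusted p = 7.02e-10 and 8.07e-09).

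The largest differences in favour of ear among genes in no list included the following. Angptl7, an angiopoietin-like secreted protein, was at 6.18 to 7.99 (median 6.84) in back skin and 14.51 to 15.82 (median 15.43) in ear, a difference of 8.52 ± 0.24 (adjusted p = 1.03e-14). Col8a1, a short-chain collagen, was at least 33.9-fold higher and Clec3a, a C-type lectin of cartilage, at least 20.5-fold (adjusted p = 6.39e-14 and 3.53e-14), both below background on all back arrays. Loxl4, a lysyl oxidase, was higher by 5.46 ± 0.30, Omd, osteomodulin, by 5.27 ± 0.35 and Ccn2, a matricellular growth factor, by 4.55 ± 0.17 (adjusted p = 1.82e-10, 2.30e-09 and 5.09e-13). Igf2, insulin-like growth factor 2, was higher by 4.68 ± 0.26 and Meltf, melanotransferrin, an iron-binding membrane protein, by 5.23 ± 0.28 (adjusted p = 1.88e-10 and 9.67e-11). The peroxisomal genes Hacl1, a lyase of fatty acid alpha-oxidation, and Acoxl, an acyl-CoA oxidase-like gene, were higher by 6.79 ± 0.22 and 4.81 ± 0.32 (adjusted p = 5.26e-14 and 2.92e-09). All 10 of these genes were chosen from rows whose groups did not overlap, so their lack of overlap follows from the choice.

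Hox genes that were called were mostly lower in ear. Of 33 measured Hox genes 18 were below background on every sham array, 2 were called higher and 15 lower, or 3 and 14 with array medians made equal and 1 and 27 with negative control medians made equal. Among all rows 15.5% were called higher and 14.2% lower. Hoxa2, the selector of the hyoid arch, was above background on all 16 arrays, between 4.89 and 6.15 (median 5.48) in back skin and between 6.95 and 8.55 (median 8.37) in ear. The groups did not overlap, and the difference was 2.66 ± 0.22 (adjusted p = 4.95e-08). Hoxa4, the other Hox gene called higher, was above background on 3 of 8 back and 7 of 8 ear arrays, at 4.14 to 5.85 and 4.63 to 6.34. Its groups overlapped, and the difference of 0.81 ± 0.26 (adjusted p = 0.0233) lost its call with negative control medians made equal. Hoxc8, a gene of the thoracic domain, was between 6.70 and 9.82 (median 9.14) in back skin and below background on all 8 ear arrays, at 2.85 to 4.44. It was at least 11.5-fold lower in ear (adjusted p = 1.05e-07). Hoxc6 was at least 5.54-fold lower (adjusted p = 1.23e-09), Hoxb7 at least 3.71-fold (adjusted p = 1.27e-06) and Hoxa5 at least 2.37-fold (adjusted p = 1.73e-06), each above background on all 8 back arrays and on no ear array. Hoxb3 was lower by 1.995 ± 0.27 and Hoxd8, the single called gene among 7 of the D cluster, by 1.63 ± 0.25 (adjusted p = 1.93e-05 and 5.52e-05). Hoxb2 was above background on all 16 arrays and lower by 0.81 ± 0.20 (adjusted p = 0.00485), with groups that overlapped. Hoxc13, which drives hair keratin genes in the follicle, was lower by 4.75 ± 0.71 (adjusted p = 5.20e-05), from 5.54 to 11.50 in back skin against 4.12 to 6.11 in ear, and its groups overlapped through the back array of mouse 1. Hoxc4 lay below background on all ear arrays and above it on 6 of 8 back arrays, at 2.92 ± 0.27 and 4.80 ± 0.53 (SD), and was called lower (adjusted p = 1.19e-06). That direction flips once values under background are raised. Raising sets all 8 ear arrays to their own background, on average 0.48 above that of back skin. The flip therefore does not by itself show a direction. Several Hox levels lay within the range of the negative controls, so being above background does not by itself show expression. Hoxa2 was under their upper decile on all 8 back arrays, and its ear mean of 8.19 lay within the span of that decile in ear. The back means of Hoxa5 and Hoxb7, 6.44 and 7.09, lay under the lowest back decile of 7.25. That of Hoxc8, 8.72, lay above the highest, 8.03.

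Other transcription factors of the head, trunk and limb were called about as often as all rows, of which 15.5% were higher and 14.2% lower. Of 40 measured craniofacial transcription factors 9 were called higher and 7 lower, and of 33 trunk and limb factors 5 and 6, with medians of -0.001 and 0.066. With negative control medians made equal the counts were 5 and 24, and 3 and 17. Members named here went both ways in both lists. Of the craniofacial list Otx1, Dlx6, Emx2 and Meis2 were higher and Shox2, Dlx3 and Msx2 lower. Of the trunk and limb list Sim2 and Meis1 were higher and Zic1 and En1 lower. Tlx1, a homeobox gene known for spleen development, was below background on all back arrays, at 3.19 to 4.19, and at 9.76 to 10.94 (median 10.08) in ear. It was at least 44.7-fold higher there (adjusted p = 5.38e-15), the largest bound among transcription factors named here. Otx1, a head homeobox gene, was higher by 5.28 ± 0.37 and Sim2, a bHLH-PAS factor, by 4.19 ± 0.39 (adjusted p = 5.93e-09 and 2.01e-07), or by 4.66 and 3.11 once values under background were raised. Dlx6, a distal-less gene of the branchial arches, was at least 3.92-fold higher (adjusted p = 5.22e-09). Emx2, a gene of forebrain and scapula development, was higher by 2.72 ± 0.31, and the Hox cofactors Meis2 and Meis1 by 2.61 ± 0.31 and 2.02 ± 0.18 (adjusted p = 2.58e-06, 3.73e-06 and 8.51e-08). Zic1, a zinc finger factor of the dorsal trunk, was at 7.80 to 9.93 (median 8.94) in back skin and 3.79 to 5.21 (median 4.25) in ear, lower by 4.50 ± 0.27 (adjusted p = 7.40e-10), or by 3.62 once values under background were raised, since 1 of 8 ear arrays was above it. The groups were fully apart, as were those of Shox2, a limb and heart homeobox gene that was lower by 2.43 ± 0.18 (adjusted p = 1.28e-08). En1, an engrailed gene that acts in dorsal-ventral patterning and in dermal fibroblasts, was above background on 5 of 8 back arrays and on no ear array, at 5.04 ± 0.40 and 3.37 ± 0.24, and its call (adjusted p = 4.58e-07) turned once values under background were raised to it. As for Hoxc4, the raised ear values are the higher ear background itself, so this turn does not by itself show a direction. Dlx3 and Msx2, homeobox genes of the growing follicle, were lower by 3.34 ± 0.65 and 2.93 ± 0.86 (adjusted p = 6.83e-04 and 0.015).

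**Figure D3:**
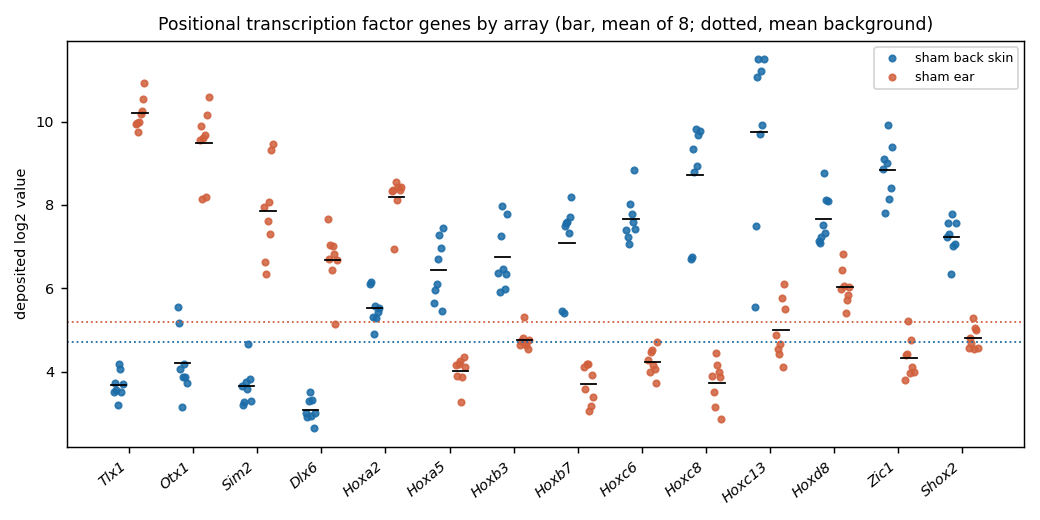
Deposited log2 values of 14 positional transcription factor genes on the 8 sham back arrays (blue) and the 8 sham ear arrays (orange), with the mean of each group as a bar and the mean background of each site, 4.72 and 5.20, as dotted lines. Tlx1, Otx1, Sim2, Dlx6 and Hoxa2 are higher on every ear array, and Hoxa5, Hoxb7, Hoxc6 and Hoxc8 lie above the blue dotted line in back skin and under the orange one in ear.

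Signalling genes that pattern skin moved in both directions. Their counts stand beside 15.5% of all rows called higher and 14.2% called lower. Of 34 measured Wnt pathway genes 10 were higher and 9 lower, and 7 and 13 with negative control medians made equal. Wif1, an inhibitor that binds Wnt ligands, was at 5.51 to 8.05 (median 6.84) in back skin and 13.22 to 14.45 (median 13.72) in ear, a difference of 7.04 ± 0.30 (adjusted p = 4.60e-12) with no overlap. Frzb, a decoy receptor of cartilage, was higher by 6.35 ± 0.28 and Rspo3, an enhancer of Wnt signalling, by 2.36 ± 0.31 (adjusted p = 4.74e-12 and 1.17e-05). Fzd9, a frizzled receptor, was higher by 5.36 ± 0.17 (adjusted p = 3.53e-14). Sfrp1, another decoy receptor, and Lef1, the transcription factor of the pathway in the hair matrix, were lower by 2.95 ± 0.40 and 2.65 ± 0.58 (adjusted p = 1.61e-05 and 0.00179). Of 25 BMP and TGF-beta genes 5 were higher and 11 lower with a median of -0.59, and 14 were lower without back mice 1 and 2. Bmp5, the ligand whose loss gives mice short ears, was at 4.63 to 7.25 (median 5.32) in back skin and 12.15 to 12.98 (median 12.52) in ear, a difference of 7.02 ± 0.31 (adjusted p = 6.29e-12). No back array came near the ear arrays. Tgfb3 was higher by 3.23 ± 0.17 (adjusted p = 1.28e-10), and Gdf5, a joint and cartilage ligand above background on 6 of 8 ear arrays, was at least 2.31-fold higher (adjusted p = 1.81e-06). Of 22 FGF and hedgehog genes 7 were higher, among them Fgf18, a cartilage growth signal, by 3.59 ± 0.49 and its receptor Fgfr3 by 1.82 ± 0.20 (adjusted p = 1.86e-05 and 1.54e-06), and 5 lower, which became 6 and 13 with negative control medians made equal. Fgf5, which ends the growth phase of hair, was below background on all ear arrays and above it on 5 of 8 back arrays, and at least 2.91-fold lower in ear (adjusted p = 0.00246). Of 18 retinoic acid genes 5 were higher and 6 lower, and 3 and 11 under the same scaling. Cyp26a1, which degrades retinoic acid, was below background on all back arrays and at least 4.26-fold higher in ear, above background on 7 of 8 arrays there (adjusted p = 9.88e-08). Dhrs9, a retinol dehydrogenase, and Stra6, the retinol transporter, were lower by 4.89 ± 0.28 and 4.19 ± 0.48 (adjusted p = 3.49e-10 and 2.56e-06).

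Hair shaft genes were far lower in ear than in back skin. Of 81 measured genes of the 3 lists of shaft and inner root sheath 77 were called lower and 1, Selenbp1, higher, with a median difference of -7.05, or -8.50 without back mice 1 and 2, where Selenbp1 lost its call (0.66 ± 0.24, adjusted p = 0.0423 with all arrays and 0.0781 without those mice, limma). Of 50 keratin-associated protein genes 48 were lower (49 without those mice), of 19 cortex and cuticle genes 18, and of 12 inner root sheath genes 11, beside 14.2% of all rows. Krt27, a type I keratin of the inner root sheath, was at 9.94 to 18.05 (median 17.41) in back skin and 3.90 to 7.57 (median 5.16) in ear, a difference of -10.58 ± 0.97 (adjusted p = 1.79e-07). No array of one site overlapped the other, but back mouse 1 stood alone at 9.94. Tchh, trichohyalin, which hardens the inner root sheath, was at 14.46 to 19.93 (median 19.70) in back skin and 6.93 to 11.99 (median 9.57) in ear, lower by 9.47 ± 0.76 (adjusted p = 3.28e-08). The inner root sheath keratin Krt25 was lower by 8.85 ± 0.97, and the trichohyalin-like gene Tchhl1 by 11.02 ± 1.05 (adjusted p = 1.48e-06 and 2.75e-07). Among shaft genes, Krt86 and Krt31, hair keratins of type II and type I, were lower by 10.51 ± 1.16 and 8.23 ± 1.20 (adjusted p = 1.59e-06 and 3.74e-05), and Dsg4, the desmoglein of the shaft, by 8.18 ± 0.97 (adjusted p = 3.66e-06). The keratin-associated proteins Krtap1-4, Krtap22-2, Krtap7-1 and Krtap9-1, which bind hair keratins together, and Gm10228, a predicted gene, were lower by 10.13 to 10.88. Near-identical genes of this family may share probes, so single members are uncertain.

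The spread of these genes lay in back skin. The mean of the keratin-associated list was 6.51 on the back array of mouse 1, 9.95 on mouse 2 and 10.09 on mouse 5, against 12.48 to 14.16 on the other 5, and 4.84 to 5.79 on the ear arrays. Inner root sheath means were 8.07, 11.97 and 12.35 on the same 3 back arrays, 13.72 to 15.92 on the other 5 and 4.59 to 6.99 in ear. These 2 lists did not overlap between the sites, whereas the mean of the cortex and cuticle list was 5.57 on back mouse 1 and 4.67 to 5.995 in ear. Some genes outside the lists were also low on back mouse 1: Lrrc15, a leucine-rich repeat protein, was at 7.62 to 14.99 (median 14.57) in back skin and 4.69 to 7.10 (median 5.47) in ear, lower by 7.44 ± 0.90 (adjusted p = 4.65e-06). Gabrp, a GABA receptor subunit, was at least 64.1-fold lower in ear, Prr9, a proline-rich protein, at least 65.1-fold and Chac1, which cleaves glutathione, at least 27.1-fold, all below background on every ear array (adjusted p = 2.04e-06, 6.10e-06 and 5.82e-05). AU018091 was at least 28-fold lower (adjusted p = 1.98e-06), and Slc7a8, an amino acid transporter, was lower by 5.75 ± 0.59 (adjusted p = 7.11e-07).

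The promoters of hair genes share a feature that the choice of lists did not use. The letters TATAAA, on either strand of the 250 bases before the start, were found for 36 of 46 keratin-associated genes in RefSeq's table, 78.3% of their windows, and in 64.3% and 50% of the windows of inner root sheath and cortex and cuticle genes, against 12.4% of all windows. This is a description of the letters in these windows, and the windows of 1 gene family resemble each other.

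**Figure D4:**
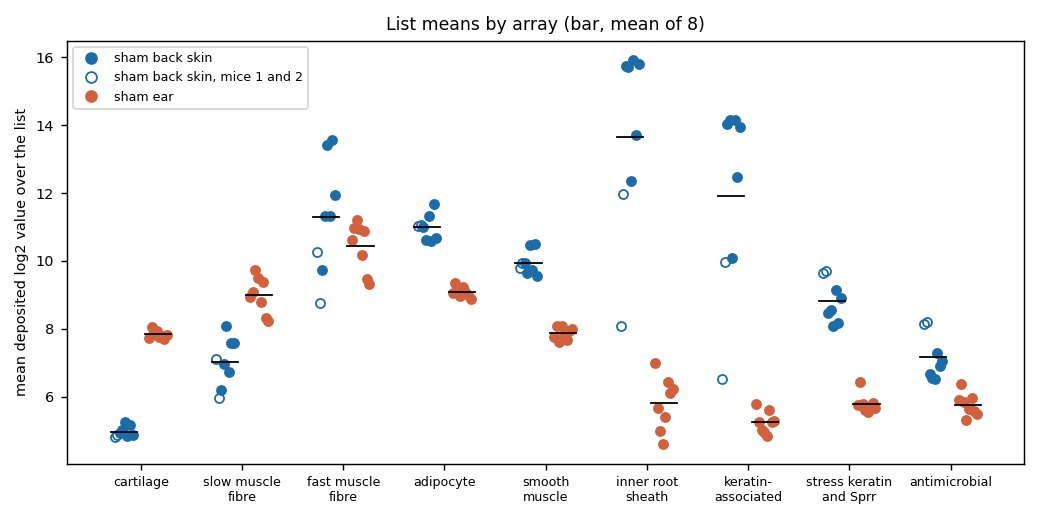
Mean deposited log2 value over each of 9 gene lists on every sham array, back skin in blue with mice 1 and 2 as open circles, and ear in orange, with the mean of each group as a bar. Cartilage and slow muscle fibre means are higher on all ear arrays, fast muscle fibre means overlap, and back mice 1 and 2 are low for the hair lists and highest for the stress keratin and antimicrobial lists.

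Other genes of the follicle were divided, with counts that stand beside 15.5% of all rows called higher and 14.2% called lower. Of 19 genes of the resting follicle, bulge and isthmus 6 were higher and 11 lower, among the latter Lgr5, a follicle stem cell receptor, by 4.06 ± 0.41 (adjusted p = 6.28e-07). Of 16 dermal papilla genes 6 were higher and 5 lower, and 4 and 7 with negative control medians made equal. Corin, a papilla protease that acts on coat colour, was at 3.12 to 8.13 (median 6.66) in back skin and 11.16 to 12.33 (median 12.02) in ear, higher by 5.61 ± 0.53 (adjusted p = 2.30e-07) with no overlap, whereas Alpl, the phosphatase by which active papillae are stained, was lower by 3.25 ± 0.31 (adjusted p = 3.07e-07). Of 15 melanocyte genes 3 were lower, near the 14.2% of all rows, with a median of 0.067, or 4 with a median of -0.34 without back mice 1 and 2. Among the lower ones were Mitf, the master regulator, by 1.98 ± 0.27 and Ednrb, the endothelin receptor, by 3.52 ± 0.33 (adjusted p = 1.88e-05 and 1.94e-07). Of 22 sebaceous gland genes 9 were higher and 4 lower, a balance that turned to 5 and 10 with negative control medians made equal. Scd3, a desaturase of sebocytes, was higher by 4.27 ± 0.49 and Awat1, a wax synthase, by 2.47 ± 0.25 (adjusted p = 2.67e-06 and 5.11e-07), while Awat2, its relative, was lower by 1.56 ± 0.30 (adjusted p = 6.55e-04).

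Slow fibre genes of skeletal muscle were mostly higher in ear, while few fast fibre genes were called in either direction. For comparison with their counts, 15.5% of all rows were called higher and 14.2% lower. Of 12 slow fibre genes 8 were higher in ear and 1, Casq2, lower with a median difference of 2.24. These counts were the same without back mice 1 and 2. Tnnt1, slow troponin T, was at 5.08 to 7.60 (median 6.71) in back skin and 10.21 to 12.63 (median 11.76) in ear, a difference of 5.13 ± 0.39 (adjusted p = 1.57e-08). The sites did not overlap, nor did they for Myh7, slow myosin, higher by 3.53 ± 0.39 (adjusted p = 1.41e-06) and above background on 1 of 8 back arrays. Of 18 myogenic and branchiomeric regulators 2 were higher and the others did not pass, with a median of -0.01. One of them was Myh3, embryonic myosin, which was below background on all back arrays, at 2.79 to 3.46, and at 10.25 to 11.52 (median 10.55) in ear, at least 65.7-fold higher (adjusted p = 7.93e-16). Musk, the kinase of the nerve-muscle synapse, was at least 3.98-fold higher (adjusted p = 4.29e-09). Of 20 fast fibre genes 2, the myosin Myh1 and Kcnc1, were higher and 4 lower, not far from the shares of all rows. Without back mice 1 and 2, 8 were lower and none higher. Mybpc2, fast myosin-binding protein C, above background on 1 of 8 ear arrays, was lower by 5.24 ± 0.63, or by 4.31 once values under background were raised, and Actn3, fast fibre actinin, by 3.54 ± 0.65 (adjusted p = 4.59e-06 and 3.61e-04). Myh4, a fast myosin, was bright at both sites, at 18.11 ± 1.39 in back skin and 17.24 ± 0.95 in ear (SD), and did not pass (adjusted p = 0.244), but it was called lower, with a difference of -1.405, without back mice 1 and 2 (adjusted p = 0.0264, limma). Of 29 contractile genes shared by fibre types 2 were higher and 3 lower with a median of 0.006, and 5 were lower with a median of -0.42 without back mice 1 and 2. The mean over all contractile genes ran from 7.44 to 11.02 in back skin and from 8.62 to 10.08 in ear, so the amount of muscle signal varied more among back punches and overlapped between sites.

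Fat and smooth muscle genes were lower in ear. Of 18 adipocyte genes 14 were called lower and the other 4 did not pass, with a median of -1.97. Over all rows 14.2% were called lower and 15.5% higher with a median of 0.04, and the other counts here stand beside the same shares. Adipoq, the adipocyte hormone adiponectin, was at 12.17 to 14.11 (median 13.24) in back skin and 8.82 to 10.23 (median 9.60) in ear, lower by 3.66 ± 0.29 (adjusted p = 3.15e-08). No ear array reached the back arrays. Pck1, a kinase of glyceroneogenesis, was lower by 4.66 ± 0.27 and Cidec, a lipid droplet protein, by 3.85 ± 0.21 (adjusted p = 3.77e-10 and 1.60e-10). Of 12 smooth muscle and pericyte genes 8 were lower and 1 higher with a median of -2.12. Actg2, enteric actin, was at 8.18 to 9.81 (median 8.93) in back skin and below background on all ear arrays, at least 13.9-fold lower (adjusted p = 2.66e-12). Acta2, smooth muscle actin, and Myh11, smooth muscle myosin, were lower by 4.01 ± 0.20 and 4.52 ± 0.23 (adjusted p = 5.02e-11 and 5.66e-11), again with no overlap. Of 15 Schwann cell genes 6 were higher and 1 lower. Mbp, myelin basic protein, was higher by 2.82 ± 0.31 and S100b, which chondrocytes also express, by 4.56 ± 0.19 (adjusted p = 1.37e-06 and 3.79e-12), while the list's median of 0.38 became -0.10 with negative control medians made equal. Of 17 endothelial genes 4 were higher and 6 lower, but 5 and 3 without back mice 1 and 2 and 1 and 7 with negative control medians made equal. Back mice 1 and 2 had the highest means of this list, 7.97 and 8.02, against 7.08 to 7.79 on the other back arrays. Among these genes were Prox1, the lymphatic regulator, higher by 1.71 ± 0.37, and Flt1, a VEGF receptor, lower by 1.60 ± 0.38 (adjusted p = 0.00146 and 0.00303).

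Genes known for epidermal stress and wounding were lower in ear, in whole punches that do not separate epidermis from follicles. Of 17 stress keratin and small proline-rich genes 13 were lower and the other 4 did not pass, with a median of -3.35, and 13 were lower without back mice 1 and 2, with a median of -2.50. This and the later counts of the paragraph stand beside 14.2% of all rows called lower and 15.5% called higher. Krt16, a keratin induced in wounded and inflamed epidermis that follicles also hold, was at 12.62 to 16.49 (median 13.65) in back skin and 5.73 to 9.71 (median 7.23) in ear, lower by 6.72 ± 0.66 (adjusted p = 3.85e-07). The groups did not overlap. Krt17, its relative in follicles, was lower by 4.39 ± 0.16, Gjb2, connexin 26, by 6.28 ± 0.55 and Sprr4, an envelope protein, by 5.30 ± 0.33 (adjusted p = 2.26e-13, 8.84e-08 and 1.21e-09). The hair genes given above differed on the same arrays, and their part in these differences was not tested. Of 45 genes of the cornified envelope and its shedding 20 were higher and 13 lower, and 17 and 20 with negative control medians made equal. Lce1h, a late envelope protein, was higher by 2.32 ± 0.26, and Rptn, repetin, and Ivl, involucrin, were lower by 5.00 ± 0.40 and 2.83 ± 0.27 (adjusted p = 1.92e-06, 2.89e-08 and 2.39e-07). Of 24 ceramide and barrier lipid genes 10 were higher and 3 lower with a median of 0.36, against 14 and 3 without back mice 1 and 2 and a median of -0.13 with negative control medians made equal. Among them Aloxe3, a lipoxygenase of the barrier, was higher by 2.71 ± 0.30, Slc27a4, a fatty acid transporter, by 2.29 ± 0.20 and Fa2h, a fatty acid hydroxylase, by 2.09 ± 0.25, while Cers3, the ceramide synthase of the epidermis, was lower by 1.14 ± 0.26 (adjusted p = 1.88e-06, 6.63e-08, 5.03e-06 and 0.0025).

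Of 19 antimicrobial and alarmin genes 10 were lower in ear and 1 higher, beside 14.2% and 15.5% of all rows. S100a7a, a psoriasin-like protein, was at 6.07 to 11.33 (median 10.11) in back skin and below background on all ear arrays, at least 16.8-fold lower (adjusted p = 3.35e-06). Lcn2, an iron-scavenging protein, was lower by 4.24 ± 0.69 and Defb3, a beta-defensin, by 3.83 ± 0.69 (adjusted p = 1.22e-04 and 3.36e-04). Il33, an alarmin cytokine stored in nuclei, was the gene called higher, by 1.40 ± 0.35 (adjusted p = 0.0053). The means of this list were 8.13 and 8.20 on back mice 1 and 2, 6.53 to 7.29 on the other 6 and 5.30 to 6.38 in ear. Without mice 1 and 2 the counts were 10 lower and 2 higher. Outside the lists, Cstdc5, a stefin-like protease inhibitor, was at 10.86 to 16.62 (median 13.41) in back skin and 4.67 to 7.72 (median 5.09) in ear, lower by 8.01 ± 0.75 (adjusted p = 2.27e-07), and Hp, haptoglobin, was lower by 6.26 ± 0.26 (adjusted p = 2.66e-12). Their groups did not overlap. Ctse, cathepsin E, was lower by 6.22 ± 0.68, Atp12a, a proton-potassium pump, by 5.75 ± 0.25, Cmah, which makes a sialic acid, by 6.92 ± 0.69 and Pinlyp, a phospholipase inhibitor, by 6.70 ± 0.77 (adjusted p = 1.51e-06, 4.93e-12, 4.91e-07 and 2.49e-06). Unlike the means of the antimicrobial list, Ctse, Cmah and Pinlyp were lowest in back skin on mouse 1, as the hair lists were. They stood there at 7.89, 10.08 and 7.93, against back medians of 12.005, 13.65 and 13.865.

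Macrophage, neutrophil and interferon response genes that passed were lower in ear. All counts of this paragraph stand beside 14.2% of all rows called lower and 15.5% called higher. Of 17 macrophage genes 8 were lower and the other 9 did not pass, with a median of -0.84, or -0.52 without back mice 1 and 2, whose list means of 10.09 and 10.14 were the highest. Lower were Itgam, an integrin of myeloid cells, by 2.83 ± 0.36 and C1qb, of complement C1q, by 1.98 ± 0.27 (adjusted p = 7.81e-06 and 2.14e-05). Of 23 interferon response genes 14 were lower and the other 9 did not pass, with a median of -0.79. Oasl2, an oligoadenylate synthase-like gene, was at least 5.33-fold lower (adjusted p = 8.64e-07), and Iigp1, a GTPase, and Mx1, an antiviral GTPase, differed by -2.83 ± 0.35 and -2.625 ± 0.38 (adjusted p = 6.30e-06 and 3.12e-05). Of 13 neutrophil genes 7 were lower and the other 6 did not pass, and 6 were lower without back mice 1 and 2. Lower was Stfa3, a stefin, by 4.92 ± 0.58 (adjusted p = 3.21e-06), though stefins are also made by keratinocytes. Of 16 dendritic cell genes 4 were lower with a median of -0.47, or 3 with a median of -0.23 without back mice 1 and 2. These counts were not far above the share of all rows. Among the lower genes was Cd209a, a lectin, by 1.97 ± 0.31 (adjusted p = 7.69e-05). Mast cell genes were 2 higher and 3 lower of 13, shares near the 15.5% and 14.2% of all rows, with Mcpt4, a chymase, lower by 1.56 ± 0.33 (adjusted p = 0.00122), and T cell genes were likewise 2 and 3 of 14, with Icos, a costimulatory receptor, lower by 2.06 ± 0.27 (adjusted p = 1.44e-05). Without back mice 1 and 2 mast cell counts were 4 higher and 3 lower, and T cell counts 3 and 1, while with negative control medians made equal they were 1 and 9, and 1 and 5. Of 25 cell cycle genes 19 were lower and the other 6 did not pass, with a median of -1.30. Lower were Top2a, a topoisomerase of dividing cells, by 1.58 ± 0.23 and Mcm2, of the replication helicase, by 1.52 ± 0.19 (adjusted p = 3.91e-05 and 7.25e-06). Growing hair matrix also divides, and the part of hair genes in these counts was not tested.

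Genes of the circadian clock were mostly higher in ear. The clock is a loop in which the activator pair Clock and Arntl binds E-boxes and drives its own repressors, the Per and Cry genes, and output factors such as Dbp, whose level follows the hour of the day. Of 18 measured clock genes 14 were called higher and 1 lower with a median of 1.73, beside 15.5% and 14.2% of all rows. The counts were 15 and 1 with array medians made equal and 11 and 1 with negative control medians made equal. Hlf, an output factor of the Dbp family, was at 5.83 to 7.70 (median 6.80) in back skin and 11.39 to 11.86 (median 11.63) in ear, a difference of 4.92 ± 0.22 (adjusted p = 6.29e-12). Dbp was at 6.69 to 9.10 (median 7.51) in back skin and 10.77 to 12.50 (median 12.06) in ear, higher by 4.11 ± 0.31 (adjusted p = 1.31e-08). For both genes every ear array exceeded every back array. The repressors Per3, Per2 and Cry2 were higher by 3.17 ± 0.19, 1.72 ± 0.21 and 2.84 ± 0.17 (adjusted p = 8.50e-10, 4.26e-06 and 7.87e-10), and the nuclear receptor Nr1d1 by 3.23 ± 0.28 (adjusted p = 9.14e-08). Nfil3, which competes with Dbp and its relatives for their sites, was the gene called lower, by 2.42 ± 0.38 (adjusted p = 7.16e-05). Ciart, a further repressor, was higher by 1.89 ± 0.34 (adjusted p = 3.50e-04), and Tef, above background on 2 of 8 ear arrays only, was at least 1.1-fold higher (adjusted p = 3.07e-06). The hour of collection at either site is not given in the labels, so a difference in hour and a difference between sites cannot be told apart here. The mean of the clock list was 8.54 to 9.21 in back skin and 10.29 to 10.89 in ear.

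The E-box letters CACGTG, which read the same on both strands, were found in the 250 bases before the start of 5 of 16 clock genes that RefSeq's table holds (Bhlhe41, Ciart, Cry1, Per1 and Tef), in 28.6% of their 21 windows against 6.02% of all windows. The window of Ciart, with 3 such boxes in capitals that begin 116, 58 and 44 bases before the start, is shown (GRCm38.p6, chr3:95882229-95882478, minus strand, 5′ to 3′). The genes with the largest differences, Hlf and Dbp, had none in their windows, which says nothing of sites elsewhere.
Ciart: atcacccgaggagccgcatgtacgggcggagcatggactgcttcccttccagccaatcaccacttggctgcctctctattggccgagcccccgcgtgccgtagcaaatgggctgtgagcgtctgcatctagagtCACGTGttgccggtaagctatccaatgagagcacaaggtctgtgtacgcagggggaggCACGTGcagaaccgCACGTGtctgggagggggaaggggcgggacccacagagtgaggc

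**Figure D5:**
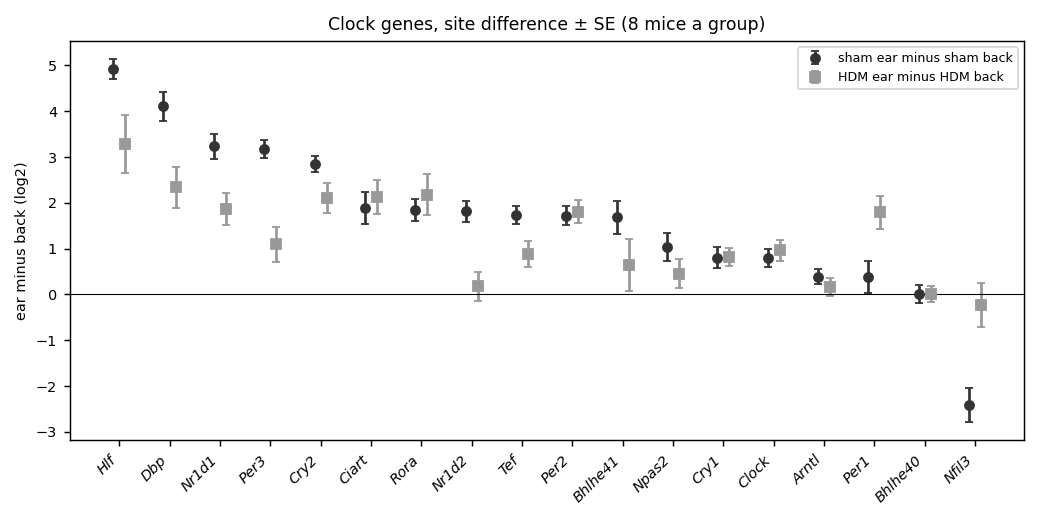
Ear minus back (log2) with its standard error for 18 clock genes, in sham mice (dark circles) and in HDM mice (grey squares), ordered by the sham difference. In sham mice 17 points lie above 0, from 0.01 to 4.92, and Nfil3 lies at -2.42.

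Cirbp and Rbm3, RNA-binding proteins induced by mild cold and chosen after their values were seen, were higher in ear by 3.59 ± 0.20 and 1.91 ± 0.20 (adjusted p = 1.53e-10 and 8.16e-07). Cirbp was at 8.86 to 10.14 (median 9.47) in back skin and 12.37 to 13.64 (median 13.04) in ear, and neither gene overlapped between sites. Of 17 immediate early and heat shock genes 2 were higher and 6 lower, beside 15.5% and 14.2% of all rows. Without back mice 1 and 2 the counts were 4 and 6. The chaperone Hsph1 was at 10.80 to 11.99 (median 11.48) in back skin and 8.09 to 9.58 (median 8.38) in ear, lower by 2.93 ± 0.22 (adjusted p = 1.46e-08), whereas Hspa1b, an inducible chaperone, was higher by 0.95 ± 0.14 (adjusted p = 4.60e-05). Egr1, an immediate early gene, was lower by 1.68 ± 0.41 (adjusted p = 0.00432), with back mouse 1 at 16.51 against 12.69 to 13.57 on the other 7 back arrays.

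Major urinary protein genes, which encode carriers of pheromones, gave the most negative difference. All 9 measured genes were called lower in ear with a median of -1.49, beside 14.2% of all rows called lower. Mup19 was at 14.31 to 17.20 (median 16.61) in back skin and below background on all ear arrays, at 3.76 to 4.69, at least 2040-fold lower (adjusted p = 1.72e-14). The back arrays were all far above the ear arrays. Mup22 was at least 1809-fold and Mup2 at least 444-fold lower (adjusted p = 3.38e-14 and 2.26e-13), and Mup9 was lower by 10.13 ± 0.36 (adjusted p = 2.48e-13). The other 5 were lower by 0.97 to 1.49 at values near or under background, and the genes of this family are so alike that probes may be shared among them.

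On the 16 HDM arrays, which the sham comparison does not use, 5831 rows, or 26.3%, differed between ear and back skin (limma). Of the 6595 sham calls 3046, or 46.2%, were called in the same direction there, 52.2% of the HDM calls, and 161 in the opposite one. The difference between both site effects passed in 2251 rows, or 10.1%, and in 1356 of the sham calls. Among position genes, Hoxc8 differed by -4.99 in both, with adjusted p = 0.998 for the difference of site effects, and Otx1 by 5.28 in both (adjusted p = 0.996). The site effects did differ for Dlx6, 3.62 in sham and 1.78 in HDM skin (adjusted p = 4.54e-04), Meis1, 2.02 and 0.73 (adjusted p = 0.043), and Hoxc4, -1.88 and -0.85 (adjusted p = 0.0251). Hoxc4 is a contrast of dim values. Its means of 3.71 in HDM back skin and 2.85 in HDM ear lay under the lowest backgrounds there, 4.43 and 4.61. Krt2 differed by 15.49 in sham and 14.41 in HDM skin (adjusted p = 0.293), and Mup19 by -11.94 and -11.19 (adjusted p = 0.309). For 11 of the 28 cartilage genes the site effects differed, with Chad at 8.28 in sham and 5.35 in HDM skin (adjusted p = 7.11e-04) and Sox9 at -0.92 and -2.61 (adjusted p = 0.0147). The hair lists, with 77 of 81 genes lower at both, changed little in count. Of the stress keratin list 13 of 17 were lower in sham ear and 3 of 17 in HDM ear, and for Krt16 the site difference was -6.72 in sham and -0.40 in HDM skin (adjusted p = 5.16e-06). Of 17 macrophage genes 8 were lower in sham ear and 8 higher in HDM ear, and for 14 the site effects differed. Of 61 contractile muscle genes 42 were lower in HDM ear against 8 in sham ear, or 14 in sham ear without back mice 1 and 2, and for 31 the site effects differed. Myh4 went from -0.87 to -5.62 (adjusted p = 6.65e-04).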

How the data were processed

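Skin RNA of 32 NC/Nga samples was measured on Affymetrix-type arrays, 8 per group. The authors deposited log2 values. The submitters' processing notes name RMA and the Transcriptome Analysis Console. Their versions, the genome build and the release of the annotation were not given in the sources used here. Rows with IDs ending in .mm.2 were tested (22206 of 28846), and 6640 control rows were left out. Of the tested rows 19572 had a gene symbol in the platform annotation.

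The main fit was limma 3.58.1 in R 4.3.3 on the 16 sham arrays, with Benjamini-Hochberg adjustment over all 22206 rows. A value is above background where it exceeds the median of its array's 5222 negative control rows. Where a gene was under background on all 8 arrays of its lower group, only a bound on the fold is stated, the mean of the higher group over the mean background of the other. HDM arrays were fitted in the same way, and the difference of both site effects in a fit on all 32. The code was tested on simulated data.

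Gene members and the 47 gene lists were chosen with earlier results of these data known. Named genes are the 12 largest and 12 most negative differences without overlap, the same among genes in no list, genes from the up to 4 called ones of each list in each direction with the smallest adjusted p, and Hox genes above background. In addition 13 genes were named as markers or after their values were seen (Krt5, Comp, Col2a1, Cnmd, Myh4, Krt31, Col1a1, Nr1d1, Per2, Ciart, Tef, Cirbp and Rbm3). Alternatives were a fit on all arrays, a replicate block, equal array or negative control medians, dim rows left out, values raised to background, a robust trend, array weights and arrays left out. Promoters are from RefSeq's table for GRCm38.p6.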

Additional observations from a re-analysis of the deposited data

Results flagged for a closer look

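Among 428 groups of 8 values checked for a single array far from the rest, 34 held one, against about 1 in 20 by chance. The shared arrays make these flags dependent, and 9 of the 17 in back skin were mouse 1. The back array of mouse 1 stood apart from the other 7 for Krt2 at 6.03 against 3.54 to 4.66, Krt27 at 9.94 against 14.41 to 18.05 and Krtap7-1 at 9.9 against 15.93 to 19.21. It also did so for Myh7 at 5.84 against 3.48 to 3.92, Tchh at 14.46 against 18.53 to 19.93 and Krt71 at 10.21 against 14.55 to 17.76. The same array was apart in Krt25 at 9.12 against 13.41 to 16.69, Egr1 at 16.51 against 12.69 to 13.57 and the mean of the immediate early and heat shock list at 12.09 against 9.99 to 10.68. Another single back array was apart for Atp12a at 12.63 against 14.04 to 14.69 (mouse 5), Sim2 at 4.66 against 3.19 to 3.81 (mouse 6) and Cyp26a1 at 2.5 against 3.04 to 3.42 (mouse 2). Single back arrays were further apart for Tnmd at 9.31 against 6.56 to 7.23 (mouse 5), Prox1 at 3.94 against 5.62 to 6.9 (mouse 4) and Selenbp1 at 7.79 against 6.07 to 6.81 (mouse 5). A lone back value was seen for the mean of the Hox D cluster list at 3.97 against 3.65 to 3.78 (mouse 7) and the mean of the dermal papilla and follicle mesenchyme list at 7.23 against 6.23 to 6.6 (mouse 5). In ear, 1 array stood apart for Krt2 at 19.38 against 19.79 to 19.93 (mouse 3), Mup2 at 4.28 against 2.49 to 3.23 (mouse 2) and Krt5 at 18.58 against 18.98 to 19.17 (mouse 3). Other single ear arrays were those of Hoxa2 at 6.95 against 8.13 to 8.55 (mouse 3), Hoxa5 at 3.28 against 3.86 to 4.34 (mouse 5) and Hoxb3 at 5.32 against 4.55 to 4.8 (mouse 4). A lone ear value was seen for Hoxc4 at 2.33 against 2.85 to 3.18 (mouse 5), Fgfr3 at 13.4 against 13.85 to 14.1 (mouse 6) and Comp at 10.17 against 9.07 to 9.54 (mouse 3). Ear also held Dsg4 at 6.79 against 4.02 to 5.21 (mouse 1), Cidec at 8.58 against 7.43 to 7.93 (mouse 2) and Fmod at 12.94 against 13.43 to 13.74 (mouse 6). In ear, 1 array stood apart for Pi16 at 8.72 against 7.18 to 7.8 (mouse 2), Flt1 at 6.91 against 7.85 to 8.4 (mouse 3) and Per3 at 10.59 against 9.48 to 9.89 (mouse 5). Other single ear arrays were those of the mean of the Hox D cluster list at 3.75 against 3.51 to 3.61 (mouse 3) and the mean of the stress keratins and small proline-rich proteins list at 6.44 against 5.56 to 5.82 (mouse 2).

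For 61 named genes the ear minus back difference was not the same in sham and HDM skin, by limma's test of the difference of both differences (adjusted p under 0.05); the value given is sham minus HDM on the log2 scale. In 49 of them the difference was smaller in HDM skin. Over all rows the balance of this contrast depended on the scaling. As deposited 748 rows were called above 0 and 1503 below, and with array medians made equal 1310 and 1105. The calls of single genes in this contrast were not checked under other scalings. Higher in ear by more in sham skin were Chad (2.92), Myh3 (4.01), Bmp5 (1.7), Hapln1 (1.61), Acan (1.92) and Col8a1 (2.16). The same held for Clec3a (2.54), Loxl4 (1.97), Fzd9 (1.9), Meltf (2.83), Dlx6 (1.84) and Meis1 (1.29). So it was for Frzb (1.6), Rspo3 (1.68), Tgfb3 (2.02), Ucma (1.4), Comp (0.84) and Cnmd (2.07). To these belonged Tnnt1 (2.41), Myh7 (2.52), Musk (1.34), S100b (2.43), Per3 (2.08) and Dbp (1.76). Lower in ear by more in sham skin were Cstdc5 (-5.81), Hp (-3.58), Slc7a8 (-2.21), Atp12a (-2.34), Krt77 (-5.12) and Krt16 (-6.32). Also of this kind were Hoxc4 (-1.02), Dhrs9 (-4.46), Ednrb (-1.6), Awat2 (-1.51), Dpp4 (-1.48) and Pi16 (-2.07). Added to these were Actg2 (-1.62), Acta2 (-1.31), Myh11 (-1.41), Rptn (-2.62), Gjb2 (-3.63) and S100a7a (-3.35). Further such genes were Lcn2 (-4.0), Stfa3 (-3.61), Oasl2 (-3.1), Iigp1 (-2.81), Mx1 (-2.18) and Nfil3 (-2.18). The last of these was Mcm2 (-1.45). The difference was larger in HDM skin for 4 genes, Sox9 (1.68), Myh4 (4.75), Awat1 (-3.24) and Fa2h (-3.37). The fitted directions were opposite for 8 genes, Krt1 (-1.88), Krt14 (0.71), Alpl (-3.79), Defb3 (-4.56), Cd209a (-2.41), Itgam (-3.25), C1qb (-2.56) and Mcpt4 (-1.94). Their differences in HDM skin lay between -0.12 for Krt14 and 0.73 for Defb3. Those of Krt1, Krt14 and Alpl did not pass there (adjusted p = 0.853, 0.419 and 0.565, limma). An opposite sign thus does not by itself show a reversal.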

How the results depend on the processing

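The count of 6595 rows that differed between sham ear and sham back skin depended most on how dim values and the background were treated. With values under background raised to it 15545 rows passed, 12377 of them higher in ear. With negative control medians made equal, an alternative chosen after the data were seen, 12470 rows passed, 1223 higher and 11247 lower. Both settings shift rows by construction, since the background was on average higher by 0.48 in ear. Raising gives a row under background on every sham array a difference of 0.48, higher in ear. Equal negative control medians lower the difference of every row by 0.48. Leaving out 1 array at a time gave 6023 to 6529 rows. A fit on all 32 arrays gave 6593, equal array medians 7402, dim rows left out 5919, a trend with robust fitting 6467, array weights 6595 and the fit without back mice 1 and 2 6536. No pairing by mouse number was seen, as same-number deviations correlated at -0.113 to 0.04 in 8 pairs and 0 arrays matched best with their own number. This cannot decide whether equal numbers are 1 animal, since spread within a site, such as that of back mice 1 and 2, may hide a pairing. A replicate block gave 6198 rows. Directions turned for Krt5, to -0.386, and Col2a1, to -0.059, with negative control medians made equal, and for Hoxc4, to 0.226, and En1, to 0.089, with values under background raised to it. Hoxc4 and En1 were under background on all ear arrays, so their raised ear values are the ear background itself. Col1a1, Krt14, Hoxa4 and Selenbp1 lost their call with negative control medians made equal, and Myh4 gained one there and without back mice 1 and 2. Among 167 named genes checked for this, Selenbp1 lost its call on leaving out any of 12 of the 16 single arrays, and no other changed its call or direction then. Why the background differed between the sites, and the cause of changes under the other settings, were not tested. Levels near background limit what can be read from dim genes.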
